A study of Mus musculus with 18 samples.

Results

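The genes described here were 9 chemokine receptors that regulatory T (Treg) cells use for positioning in tissue: Ccr2, Ccr4, Ccr6, Ccr8, Ccr10, Cxcr3, Cxcr4, Cxcr5 and Cxcr6. They were taken by symbol from a deposited table of 23953 entries, and all 9 were present. RNA had been sequenced from C57BL/6 mouse Treg cells sorted by flow cytometry as CD4+CD25hi cells, a gate that did not separate resting from effector Treg cells. There were 6 genotypes with 3 libraries each. The miR-23 Tg, miR-24 Tg and miR-27 Tg groups overexpressed 1 microRNA family of the miR-23 cluster in T cells, and the cluster Tg group overexpressed the entire cluster in T cells. In the DKO group (DKO Tg in the labels) the miR-23a and miR-23b clusters were both deleted in T cells, and the WT group (WT Tg in the labels) was the control. The series title names CD4cre, a Cre recombinase driven in T cells from the CD4 promoter and so not restricted to Treg cells. The age and sex of the mice and the meaning of Tg in the WT and DKO labels were not given in the sources used here, nor whether the libraries came from separate animals. The p-values below therefore measure the spread between these samples, which may be technical.

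Chemokine receptors are G protein-coupled receptors that make a cell migrate towards the source of a chemokine. Treg cells leaving the resting state lose receptors for lymph node entry, such as Ccr7, and gain receptors for inflamed or barrier tissue. Ccr4 binds the ligands encoded by Ccl17 and Ccl22, Ccr8 that of Ccl1, and Ccr10 those of Ccl27a and Ccl28, and these 3 receptors are known from cells that home to skin and mucosa. Ccr2, Cxcr3 and Cxcr6 are linked to inflammation and type 1 responses, Ccr6 to Ccl20 and type 17 responses, Cxcr5 to B cell follicles and Cxcr4 to Cxcl12 and the marrow and lymphoid niches. A microRNA lowers the output of messenger RNAs whose 3′ untranslated region (UTR) pairs with its seed, bases 2 to 8 of the mature microRNA.

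The mature sequences of the overexpressed families are shown because a direct effect on a receptor would act through their seeds, which stand in capitals. They are from RefSeq (GRCm38.p6), read 5′ to 3′. The miR-27 pair share 1 seed, and each of the 3 families has a seed of its own.
mmu-miR-23a-3p: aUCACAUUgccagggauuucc
mmu-miR-24-3p: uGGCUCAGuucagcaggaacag
mmu-miR-27a-3p: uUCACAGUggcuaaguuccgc
mmu-miR-27b-3p: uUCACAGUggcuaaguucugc
The first 3 lie on chromosome 8 (84208563-84208583, 84208875-84208896 and 84208727-84208747) and mmu-miR-27b-3p lies on chromosome 13 (63300760-63300780).

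An annotated 3′ UTR of at least 50 bases was found for 8 of the 9 receptors (GENCODE vM21, 73 to 2701 bases), and none for Ccr8. A 7-base match to a seed (AATGTGA for miR-23, CTGAGCC for miR-24, ACTGTGA for miR-27) was found in 1 receptor, Ccr2, whose 2701-base 3′ UTR held 2 miR-23 matches. They are shown with 10 bases on each side and the match in capitals.
Ccr2 miR-23 match at chr9:124108418-124108444, plus strand, GRCm38: tcaacttctaAATGTGAtgaaatacct
Ccr2 miR-23 match at chr9:124108692-124108718, plus strand, GRCm38: ttttgtcctaAATGTGAtcttggtgaa
No 7-base match for miR-24 or miR-27 was present in the 8 receptors. Among 10185 tested genes with a 3′ UTR, 16.4% held a miR-23 match, 19.1% a miR-24 match and 17.1% a miR-27 match. With a 6-base match, the receptors with a match were 2 for miR-23 (Ccr2 and Cxcr4), 3 for miR-24 (Ccr2, Ccr4 and Cxcr5) and 0 for miR-27, against 38.1%, 36.2% and 48.3% of genes. The miR-23 matches of Ccr2 can be read beside its level in miR-23 Tg cells, 9.56 ± 0.814 RPKM against 8.19 ± 2.79 in WT (adjusted p = 0.81 in limma).

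Values are RPKM, read numbers divided by transcript length and by the library's mapped reads, so that levels of different genes can be set side by side. Means are given ± SD with n = 3. Depth, estimated from the steps between low values, was about 20.4 to 31.7 megareads per library, and 10710 to 11121 genes reached 1 RPKM. The 8 Treg markers checked summed to between 2000 and 2618 RPKM in every library, with Foxp3, the lineage factor, at 197 to 348. Foxp3 read 287 to 336 in WT and lay below that in miR-23 Tg (215 to 249) and cluster Tg (207 to 283). Neither difference passed (adjusted p = 0.255 and 0.122 in limma). Its lowest value was in miR-27 Tg library 3. Markers of B cells, myeloid cells and NK cells were present too, and were higher in several transgenic libraries. The libraries of highest B cell sum were miR-27 Tg library 3 (580 RPKM over 12 genes) and miR-24 Tg library 1 (575), against 103 to 150 in WT. Values for miR-27 Tg and miR-24 Tg without these 2 libraries are given beside the receptors called there, and for the other named genes at the end of their description.

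In WT cells the level ran from Cxcr4 at 99.98 ± 6.95 RPKM, through Ccr6 at 44.3 ± 7.62, Ccr8 at 37.9 ± 4.25, Cxcr5 at 24.7 ± 2.92, Ccr4 at 24.6 ± 3.62 and Cxcr3 at 20.4 ± 3.51, to Ccr2 at 8.19 ± 2.79, Cxcr6 at 6.74 ± 1.39 and Ccr10 at 0.551 ± 0.275. Neighbours in this order from Ccr6 to Ccr8, from Cxcr5 to Cxcr3 and from Ccr2 to Cxcr6 overlapped between libraries. Cxcr4 had the highest mean in all 6 genotypes and Ccr10 the lowest. The second place changed hands: it was held by Ccr6 in WT, Ccr8 in DKO, Ccr4 in miR-27 Tg and Cxcr3 in miR-23 Tg, miR-24 Tg and cluster Tg cells. Ccr2 was the seventh in WT and the fifth in miR-27 Tg cells, above Ccr8.

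**Figure D1:**
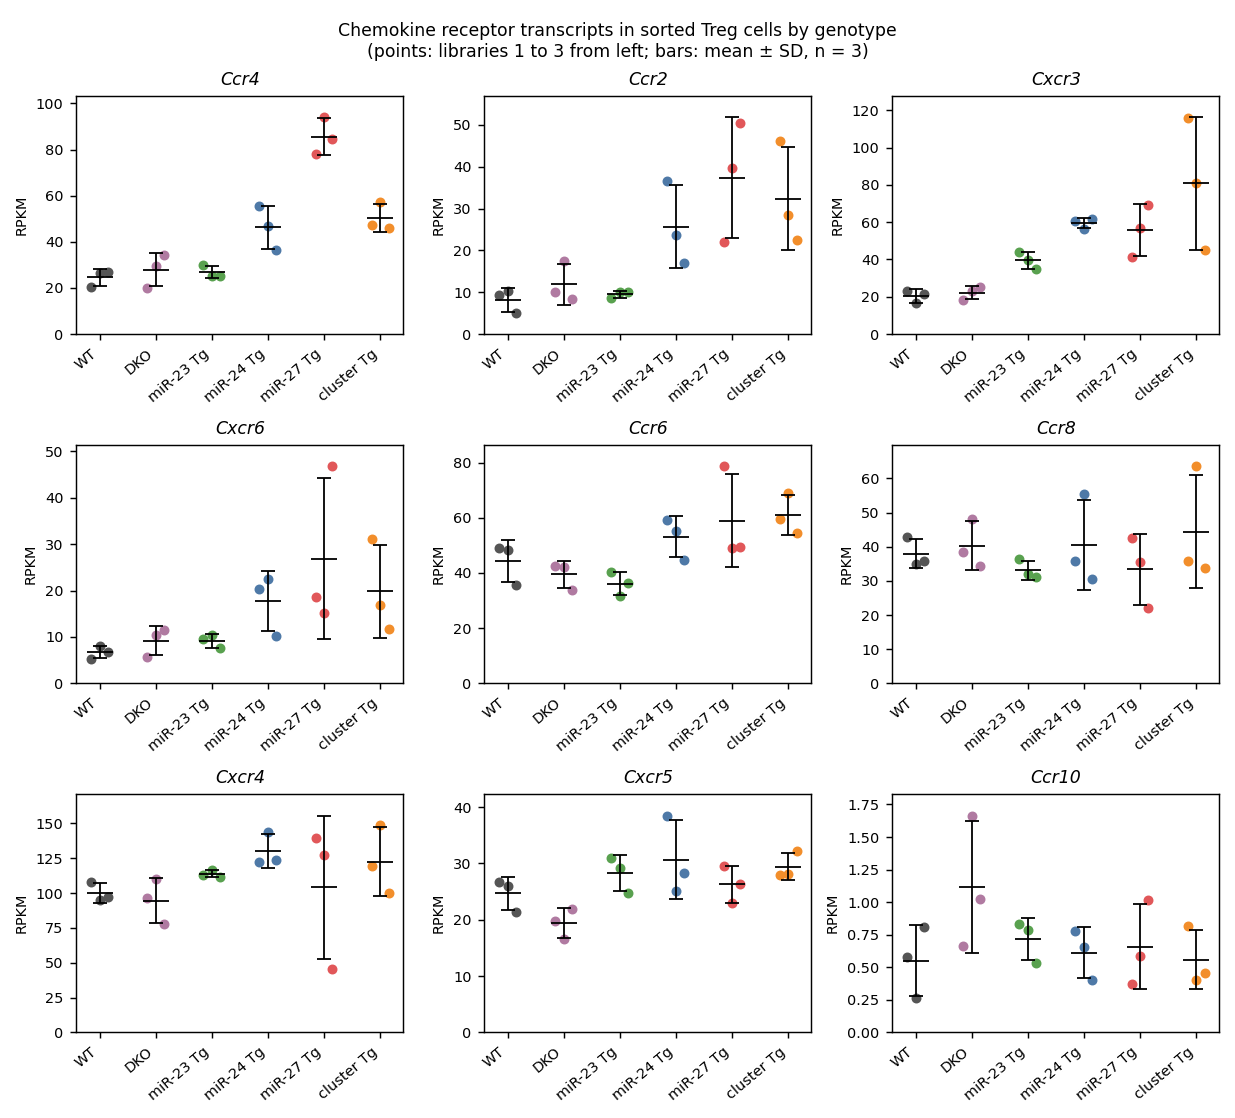
RPKM of each receptor in the 18 libraries, by genotype (points are libraries 1 to 3 from left, bars are mean ± SD, each panel has its own axis from 0). Ccr4 in miR-27 Tg sits between 78.1 and 94.0, above every library of the other 5 genotypes, while Ccr8 overlaps between all genotypes.

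Overexpression of miR-27 or of the whole cluster came with higher transcripts of 4 receptors, Ccr2, Ccr4, Cxcr3 and Cxcr6, and overexpression of miR-24 with higher Ccr2, Ccr4 and Cxcr3. No receptor was called lower against WT in any of the 5 comparisons. Calls were made at a limma p under 0.05 after Benjamini-Hochberg adjustment over the 11520 genes tested. Folds are on the log2(RPKM + 0.5) scale, which understates those of low genes. In miR-27 Tg cells 4 of 9 receptors were called higher, where 15.9% of all tested genes were. In cluster Tg cells 4 of 9 were called higher (13.8% of genes), and in miR-24 Tg cells 3 of 9 (4.6% of genes). In miR-23 Tg cells limma called 0 of 9 (0.156% of genes), with 1 of 9 at an unadjusted p under 0.05. In DKO cells it called 0 of 9 (0.0174% of genes), with 2 of 9 at an unadjusted p under 0.05. The median log2 fold change of the 9 was 0.39 in miR-27 Tg, 0.47 in cluster Tg, 0.38 in miR-24 Tg, 0.19 in miR-23 Tg and 0.12 in DKO, where the median of all tested genes lay between -0.0041 and 0.016. These comparisons share the 3 WT libraries, so their likeness is not independent. In sorted bulk cells, fewer cells of a type and less RNA per cell cannot be told apart.

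**Figure D2:**
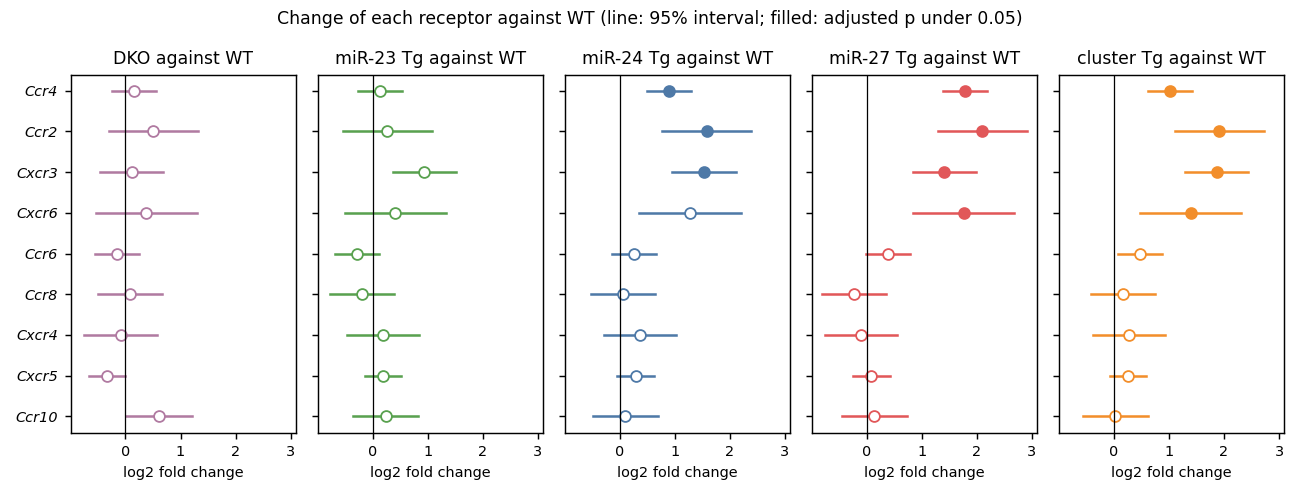
Log2 fold change of each receptor against WT in the 5 other genotypes (x axis), with its 95% interval as a line. Filled points had an adjusted p under 0.05: 3 in miR-24 Tg, 4 in miR-27 Tg, 4 in cluster Tg, and none in DKO or miR-23 Tg.

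Ccr4 had its highest level in miR-27 Tg cells. Its 3 libraries read 78.1, 94.0 and 84.4 RPKM in miR-27 Tg cells, 47.4, 57.3 and 46.1 in cluster Tg cells, 55.3, 46.7 and 36.6 in miR-24 Tg cells, 29.95, 25.4 and 25.4 in miR-23 Tg cells, 19.9, 29.7 and 34.4 in DKO and 20.4, 26.3 and 27.02 in WT. The miR-27 Tg libraries lay above all others, the cluster Tg and miR-24 Tg libraries overlapped each other above the rest, and miR-23 Tg, DKO and WT overlapped. Against WT, Ccr4 was 3.44-fold higher in miR-27 Tg (log2 1.78, SE 0.19, adjusted p = 3.21e-05), 2.03-fold in cluster Tg (adjusted p = 0.00158) and 1.85-fold in miR-24 Tg (adjusted p = 0.00953). The miR-24 Tg call ended without miR-27 Tg library 3 and miR-24 Tg library 1 (log2 0.75, adjusted p = 0.0596) and when the model held those 2 groups alone (adjusted p = 0.0518). The miR-27 Tg value without those 2 libraries was log2 1.79 (adjusted p = 0.000312).

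Ccr8, which marks tissue Treg cells together with Ccr4, did not pass the test in any of the 12 comparisons made. Its libraries read 42.5, 35.6 and 22.0 RPKM in miR-27 Tg cells, 35.7, 63.5 and 33.9 in cluster Tg cells and 42.8, 35.1 and 35.9 in WT. The groups overlapped, and library 3 of miR-27 Tg was the lowest of all 18. Ccr8 differed from WT by a log2 of -0.23 in miR-27 Tg, with a 95% interval from -0.81 to 0.35. In cluster Tg the interval ran from -0.41 to 0.75. The ratio of Ccr4 to Ccr8 RPKM, chosen after the values were seen, was 1.84, 2.64 and 3.83 in miR-27 Tg libraries against 0.477, 0.751 and 0.753 in WT. It was 0.902 to 1.36 in cluster Tg, 0.842 to 1.55 in miR-24 Tg, 0.790 to 0.825 in miR-23 Tg and 0.520 to 0.998 in DKO. None of the 4 transgenic groups overlapped WT, and for each the exact permutation test, two-sided, gave p = 0.1, the smallest that 3 against 3 libraries allow. Ccr10 was close to the floor of the table. It ran from 0.265 to 1.66 RPKM, about 11 to 85 reads, and was entered in the test because 3 libraries reached 1 RPKM (miR-27 Tg library 3 at 1.01, DKO library 2 at 1.66 and DKO library 3 at 1.02). Its groups overlapped throughout, so a change of Ccr10 was not detectable at this level.

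Ccr2, Cxcr3 and Cxcr6, the receptors linked to inflamed tissue, were each called higher in miR-27 Tg and cluster Tg cells. Ccr2, best known from monocytes but also used by activated Treg cells, read 22.0, 39.6 and 50.6 RPKM in miR-27 Tg cells, 46.1, 28.5 and 22.5 in cluster Tg cells, 36.5, 23.7 and 16.9 in miR-24 Tg cells, 8.62, 10.1 and 10.01 in miR-23 Tg cells, 10.04, 17.5 and 8.29 in DKO and 9.29, 10.3 and 5.02 in WT. The miR-27 Tg and cluster Tg libraries lay above those of miR-23 Tg, DKO and WT, the lowest miR-24 Tg library fell below the highest DKO library, and library 1 was the lowest of miR-27 Tg but the highest of cluster Tg. Ccr2 was 4.29-fold higher than WT in miR-27 Tg (log2 2.10, SE 0.38, adjusted p = 0.00116), 3.77-fold in cluster Tg (adjusted p = 0.00256) and 2.99-fold in miR-24 Tg (adjusted p = 0.0184). Without miR-27 Tg library 3 and miR-24 Tg library 1 the miR-27 Tg value was log2 1.85 (adjusted p = 0.00667). The miR-24 Tg call ended without those libraries (log2 1.30, adjusted p = 0.0772), without miR-24 Tg library 1 alone (adjusted p = 0.0847), without WT library 3 (adjusted p = 0.0828) and in a model of the miR-24 Tg and WT groups alone (adjusted p = 0.0661).

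Cxcr3, the receptor for Cxcl9, Cxcl10 and Cxcl11 that type 1 Treg cells carry, read 116, 81.1 and 45.1 RPKM in cluster Tg cells, 60.4, 56.4 and 61.5 in miR-24 Tg cells, 41.4, 56.9 and 69.3 in miR-27 Tg cells, 43.9, 39.6 and 35.0 in miR-23 Tg cells, 18.2, 23.1 and 25.1 in DKO and 23.4, 16.5 and 21.4 in WT. Each of the 4 transgenic groups lay wholly above WT and DKO. It was 3.65-fold higher than WT in cluster Tg (log2 1.87, SE 0.27, adjusted p = 0.000356), 2.89-fold in miR-24 Tg (adjusted p = 0.00333) and 2.66-fold in miR-27 Tg (adjusted p = 0.00168). In miR-23 Tg cells the difference was log2 0.94 (SE 0.27) and did not pass (adjusted p = 0.14). Without cluster Tg library 1, the highest, the cluster Tg value was log2 1.56 (adjusted p = 0.00166). Without miR-27 Tg library 3 and miR-24 Tg library 1 the miR-27 Tg value was log2 1.24 (adjusted p = 0.0145) and the miR-24 Tg value log2 1.52 (adjusted p = 0.015).

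Cxcr6, the receptor for Cxcl16, read 18.7, 15.1 and 46.7 RPKM in miR-27 Tg cells, 31.0, 16.8 and 11.7 in cluster Tg cells, 20.4, 22.6 and 10.3 in miR-24 Tg cells, 9.48, 10.4 and 7.51 in miR-23 Tg cells, 5.67, 10.4 and 11.5 in DKO and 5.34, 8.11 and 6.76 in WT. The miR-27 Tg, cluster Tg and miR-24 Tg groups lay above WT, and 1 library set the top of each of the first 2. Cxcr6 was 3.38-fold higher than WT in miR-27 Tg (log2 1.76, SE 0.43, adjusted p = 0.00766) and 2.63-fold in cluster Tg (adjusted p = 0.0297), and its log2 of 1.28 in miR-24 Tg did not pass (adjusted p = 0.08). Without miR-27 Tg library 3 and miR-24 Tg library 1 the miR-27 Tg value was log2 1.27 (adjusted p = 0.044). The cluster Tg call ended without cluster Tg library 1 (log2 1.02, adjusted p = 0.151), cluster Tg library 2 (adjusted p = 0.0554), WT library 1 (adjusted p = 0.102) or WT library 3 (adjusted p = 0.067), and the miR-24 Tg value passed without miR-24 Tg library 3 (log2 1.62, adjusted p = 0.0459).

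The receptors for follicles, type 17 sites and lymphoid niches did not pass against WT. Ccr6 read 59.6, 69.0 and 54.6 RPKM in cluster Tg cells, 78.6, 48.9 and 49.5 in miR-27 Tg cells, 40.2, 31.7 and 36.4 in miR-23 Tg cells and 49.0, 48.4 and 35.5 in WT. The cluster Tg libraries lay above WT (log2 0.47, SE 0.19, adjusted p = 0.0809) and the others overlapped it. With the replicate number as a block, the cluster Tg value passed (adjusted p = 0.0258). Cxcr5, the receptor for Cxcl13 that takes T cells to B cell follicles, read 19.9, 16.7 and 21.9 RPKM in DKO and 26.7, 26.1 and 21.4 in WT, which overlapped, and in the 4 transgenic groups it ran from 22.96 to 38.5. Its cluster Tg libraries, 27.9 to 32.2, lay above WT without passing (log2 0.25, adjusted p = 0.254). Cxcr4 read 140, 128 and 45.2 RPKM in miR-27 Tg cells, where library 3 was the lowest of all 18, and 108, 94.9 and 97.2 in WT. Cxcr4 lay above WT in all 3 libraries of miR-23 Tg (112 to 117 RPKM, log2 0.19, adjusted p = 0.838) and of miR-24 Tg (122 to 144, log2 0.38, adjusted p = 0.50), without passing. In miR-27 Tg the log2 difference was -0.10 with library 3 and 0.42 without it (adjusted p = 0.0771).

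In DKO cells the receptors stood near WT. The 2 with an unadjusted p under 0.05 were Cxcr5 (log2 -0.34, 95% interval -0.67 to -0.01) and Ccr10 (log2 0.61, 0.02 to 1.20), both with an adjusted p of 1 in limma and both overlapping WT. For the 4 receptors that rose in miR-27 Tg, the DKO intervals ran from -0.24 to 0.56 for Ccr4, -0.46 to 0.69 for Cxcr3, -0.30 to 1.32 for Ccr2 and -0.54 to 1.30 for Cxcr6. A change within those bounds was not detectable with these libraries.

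In direct tests among miR-24 Tg, miR-27 Tg and cluster Tg cells at most 1 receptor was called. Between miR-27 Tg and miR-24 Tg, 1 of 9 receptors was called higher (13.2% of genes), and it was Ccr4 (log2 0.90, SE 0.19, adjusted p = 0.00408). Between cluster Tg and miR-27 Tg, 1 of 9 was called lower (3.35% of genes), again Ccr4 (log2 -0.76, adjusted p = 0.0278). That second call was not stable: it ended without miR-27 Tg library 2 or 3 or cluster Tg library 1 or 3, with log2 values from -0.69 to -0.86 over the alternatives and an adjusted p of up to 0.108. Between cluster Tg and miR-24 Tg limma called 0 of 9 higher (6.45% of genes), with 0 of 9 at an unadjusted p under 0.05. For Ccr4 that interval ran from -0.27 to 0.53, and Cxcr3 passed without cluster Tg library 3 (log2 0.70, adjusted p = 0.041).

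Against miR-23 Tg, which has the transgene design but no receptor called against WT, 4 of 9 were called higher in miR-27 Tg (12.4% of genes). With the log2 fold change and then the adjusted p in parentheses, these were Ccr4 (1.65, 6.38e-05), Ccr2 (1.84, 0.00364), Ccr6 (0.67, 0.018) and Cxcr6 (1.34, 0.0363). In cluster Tg 4 of 9 were called (10.9% of genes): Ccr4 (0.89, 0.00538), Ccr2 (1.65, 0.00878), Ccr6 (0.75, 0.0127) and Cxcr3 (0.93, 0.0273). In miR-24 Tg 2 of 9 were called (7.37% of genes), Ccr4 (0.75, 0.018) and Ccr2 (1.32, 0.0339). The calls of Ccr2 and Ccr4 in miR-27 Tg and of Ccr4 in cluster Tg held under every alternative run. The Cxcr6 call in miR-27 Tg ended without any 1 of the miR-23 Tg libraries or miR-27 Tg library 3, with no filter, with only the 2 compared groups and without miR-27 Tg library 3 and miR-24 Tg library 1 together, and its highest adjusted p was 0.176. The Cxcr3 call in cluster Tg ended without any 1 of the miR-23 Tg libraries or cluster Tg library 1 or 2 and with only the 2 compared groups, up to an adjusted p of 0.136. Ccr6 lost its call without miR-23 Tg library 2 in both (up to 0.0755 and 0.0543), and without miR-27 Tg library 1 or with only the 2 compared groups in the former. In cluster Tg, Ccr2 missed the threshold without cluster Tg library 1 (0.0503). In miR-24 Tg both calls ended without miR-24 Tg library 1 or miR-23 Tg library 2, up to 0.0796 for Ccr4 and 0.134 for Ccr2, and that of Ccr2 also without miR-23 Tg library 1 or 3 or miR-24 Tg library 2.

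Overexpression and deletion of the cluster were also compared directly. In cluster Tg against DKO, 5 of 9 receptors were called higher (15.1% of genes): Cxcr3 (3.37-fold, adjusted p = 0.000397), Ccr2 (2.65-fold, 0.0136), Ccr4 (1.82-fold, 0.00403), Ccr6 (1.54-fold, 0.0221) and Cxcr5 (1.51-fold, 0.0116). Cxcr5 read 27.9, 28.2 and 32.2 RPKM in cluster Tg cells and did not overlap DKO. The call of Cxcr3 held under every alternative run. Those of Ccr2 (without cluster Tg library 1, adjusted p = 0.0769), Cxcr5 (without DKO library 2, 0.0554), Ccr6 (without cluster Tg library 1 or 2 or DKO library 3, up to 0.0782) and Ccr4 (only those 2 groups in the model, 0.05001) did not.

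The B cell and myeloid sums lay above WT in every library of the 4 transgenic groups, including miR-23 Tg, where no receptor was called. The 12 B cell genes summed to 347 to 580 RPKM in miR-27 Tg, 190 to 315 in cluster Tg, 174 to 575 in miR-24 Tg, 182 to 269 in miR-23 Tg, 122 to 170 in DKO and 103 to 150 in WT. Of the 11 tested, 10 were called higher in miR-27 Tg cells, 7 in miR-24 Tg cells and 0 in cluster Tg and miR-23 Tg cells. Their median log2 fold changes were 1.71, 1.39, 0.59 and 1.49 in that order. The 11 myeloid genes summed to 124 to 200 in miR-27 Tg and 135 to 154 in cluster Tg. They summed to 138 to 250 in miR-24 Tg, 115 to 158 in miR-23 Tg and 97.7 to 105 in WT. Of 7 tested, 6, 1, 2 and 0 were called higher in those 4 transgenic groups in turn (15.9%, 13.8%, 4.6% and 0.156% of all genes). Their median log2 fold changes were 1.74, 0.52, 1.22 and 1.13. Csf1r, a defining myeloid gene, read 0.827 to 4.12 RPKM in miR-27 Tg, 0.233 to 0.423 in cluster Tg, 0.292 to 8.79 in miR-24 Tg, 0.486 to 1.23 in miR-23 Tg and 0.0898 to 0.149 in WT. Lyz2, the lysozyme gene of myeloid cells, read 7.72 to 8.20 in cluster Tg and 1.96 to 3.01 in WT. Its range was 5.65 to 31.3 RPKM in miR-27 Tg, 5.73 to 49.5 in miR-24 Tg and 7.05 to 19.4 in miR-23 Tg. Over miR-27 Tg libraries 1 to 3, Lyz2 (5.65, 17.5 and 31.3) and Csf1r (0.827, 2.43 and 4.12) rose in the order of Ccr2. Library 1 was the highest of miR-24 Tg for Lyz2, Csf1r and Ccr2, but libraries 2 and 3 ran the other way for Ccr2. In cluster Tg Lyz2 hardly varied, and in miR-23 Tg it lay above WT while Ccr2 overlapped WT. Cd14 was listed at 0 in 4 of 18 libraries. The 5 NK cell genes summed to 6.67 to 20.4 in miR-27 Tg, 3.79 to 19.9 in cluster Tg, 7.10 to 11.3 in miR-24 Tg, 7.22 to 9.74 in miR-23 Tg and 3.68 to 4.13 in WT. Of 4 tested, 2 were called higher in miR-27 Tg (15.9% of all genes) and 1 in cluster Tg (13.8%). In miR-24 Tg 1 was called higher (4.6%) and in miR-23 Tg 0 (0.156%). Klrd1, a receptor of NK cells, was 9.66-fold higher in miR-27 Tg (adjusted p = 0.00213), 5.63-fold in miR-24 Tg (0.028) and 4.66-fold in cluster Tg (0.0233), and Ncr1 3.77-fold in miR-27 Tg (0.0067). Klra8 was listed at 0 in 9 libraries. In cluster Tg, library 1 had the highest NK cell sum and also the highest Cxcr3, Ccr2 and Cxcr6. The part of these cells in the rise of Ccr2, Cxcr3 and Cxcr6 was not tested, beyond the values given without single libraries.

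**Figure D3:**
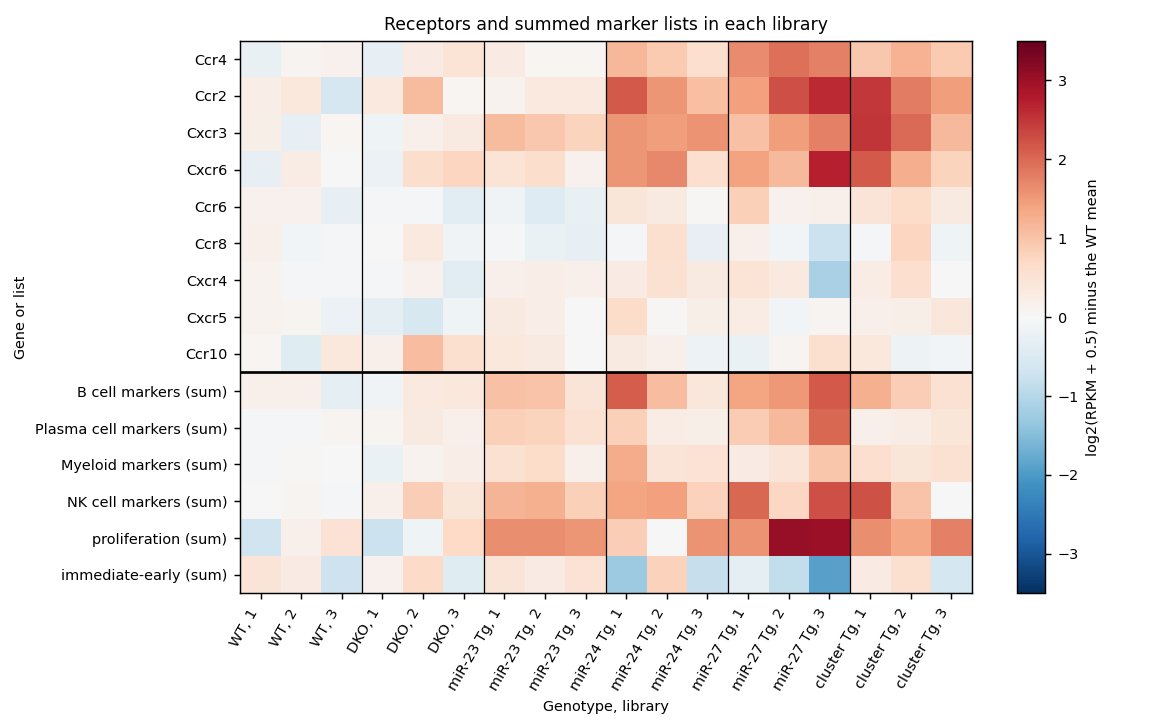
Log2(RPKM + 0.5) minus the WT mean for the 9 receptors and for 6 summed gene lists (rows) in the 18 libraries (columns, in order of genotype and library). Ccr4 is even across the 3 miR-27 Tg libraries, whereas Cxcr6 and the B cell, plasma cell and NK cell sums are highest in miR-27 Tg library 3, where Cxcr4 and Ccr8 are lowest.

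Cell division genes also differed between genotypes. All 14 proliferation genes were called higher in miR-27 Tg (15.9% of all genes), 9 in cluster Tg (13.8%) and 0 in miR-24 Tg and miR-23 Tg. Their median log2 fold changes were 2.37, 1.43, 0.745 and 1.405 in that order, so the median in miR-23 Tg was close to that in cluster Tg. Mki67 read 31.9, 82.6 and 71.7 RPKM in miR-27 Tg cells, 31.0, 28.1 and 31.1 in cluster Tg cells and 20.8, 12.5 and 25.1 RPKM in miR-24 Tg cells and 24.9, 22.3 and 25.7 in miR-23 Tg cells. In WT it read 5.69, 11.8 and 10.4, below every transgenic library. The part of cell division in the receptor values was not tested. The 13 immediate-early genes respond to handling and to stimulation. They summed to 751 to 2234 RPKM in miR-27 Tg and 1724 to 3840 in WT, which overlapped. In miR-27 Tg 1 was called higher (Egr2) and 1 lower (Jun), where 15.9% and 12.7% of all genes were. In miR-27 Tg library 3, where Cxcr4 and Ccr8 were lowest, that sum was also the lowest of all 18. Its part in those values was not tested.

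Other chemokine receptors followed in both directions. Of 19 names listed, 15 were in the table and 7 were tested. In miR-27 Tg 3 were called higher and 1 lower (15.9% and 12.7% of all genes). In cluster Tg the counts were 3 and 1 (13.8% and 10.5%), and in miR-24 Tg 2 and 1 (4.6% and 4.38%). These counts include genes that entered the test only through the groups where they are high. Ccr1, best known from myeloid cells, reached the minimum of 1 RPKM in 4 libraries and Ccr3, the eosinophil receptor, in 9, all of them of miR-24 Tg, miR-27 Tg or cluster Tg. Their levels are therefore given as a description: Ccr1 stood at 1.44 ± 0.842 RPKM in miR-27 Tg cells and 0.223 ± 0.110 in WT. Ccr3 stood at 3.88 ± 1.86 RPKM in cluster Tg, 2.52 ± 0.757 in miR-27 Tg, 2.15 ± 0.9995 in miR-24 Tg and 0.510 ± 0.124 in WT. Ccr7, the receptor for lymph node entry, fell to 88.5 ± 15.3 RPKM in cluster Tg (1.98-fold lower, adjusted p = 0.000164), 98.5 ± 8.76 in miR-27 Tg (1.76-fold, 0.000429) and 130.03 ± 20.2 in miR-24 Tg (1.34-fold, 0.0498) from 174 ± 5.47 in WT. Ccr7 stood at 183 ± 3.19 in miR-23 Tg and was not called there. Ccrl2, which binds chemerin, was called higher in cluster Tg, where libraries read 21.5, 22.3 and 9.22 RPKM against 4.95 to 8.20 in WT (adjusted p = 0.0186).

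The cells also carried transcripts of some ligands of the 9 receptors. Of 16 ligand genes, 4 were tested. In both cluster Tg and miR-27 Tg 3 were called higher (13.8% and 15.9% of all genes), and in miR-24 Tg 1 was (4.6%). Ccl20, the ligand of Ccr6, stood at 11.8 ± 3.53 RPKM in miR-27 Tg, 5.99 ± 0.854 in cluster Tg, 2.71 ± 0.0914 in miR-24 Tg and 1.74 ± 0.788 in WT (miR-27 Tg 5.58-fold higher, adjusted p = 3.82e-05). Ccl1, the ligand of Ccr8, was highest in miR-24 Tg at 29.2 ± 10.4 RPKM against 4.57 ± 0.696 in WT (5.67-fold, adjusted p = 0.000666), and was 4.69-fold higher in cluster Tg and 2.66-fold in miR-27 Tg. Cxcl10, a ligand of Cxcr3, was 4.05-fold higher in cluster Tg, where libraries read 79.7, 52.2 and 17.9 RPKM, and 2.68-fold higher in miR-27 Tg. Library 1 of cluster Tg thus held the highest level of both Cxcl10 and its receptor Cxcr3. The ligands of Ccr4, Ccl17 and Ccl22, did not pass the filter, and Ccl7 and Ccl28 were listed at 0 in all 18 libraries.

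**Figure D4:**
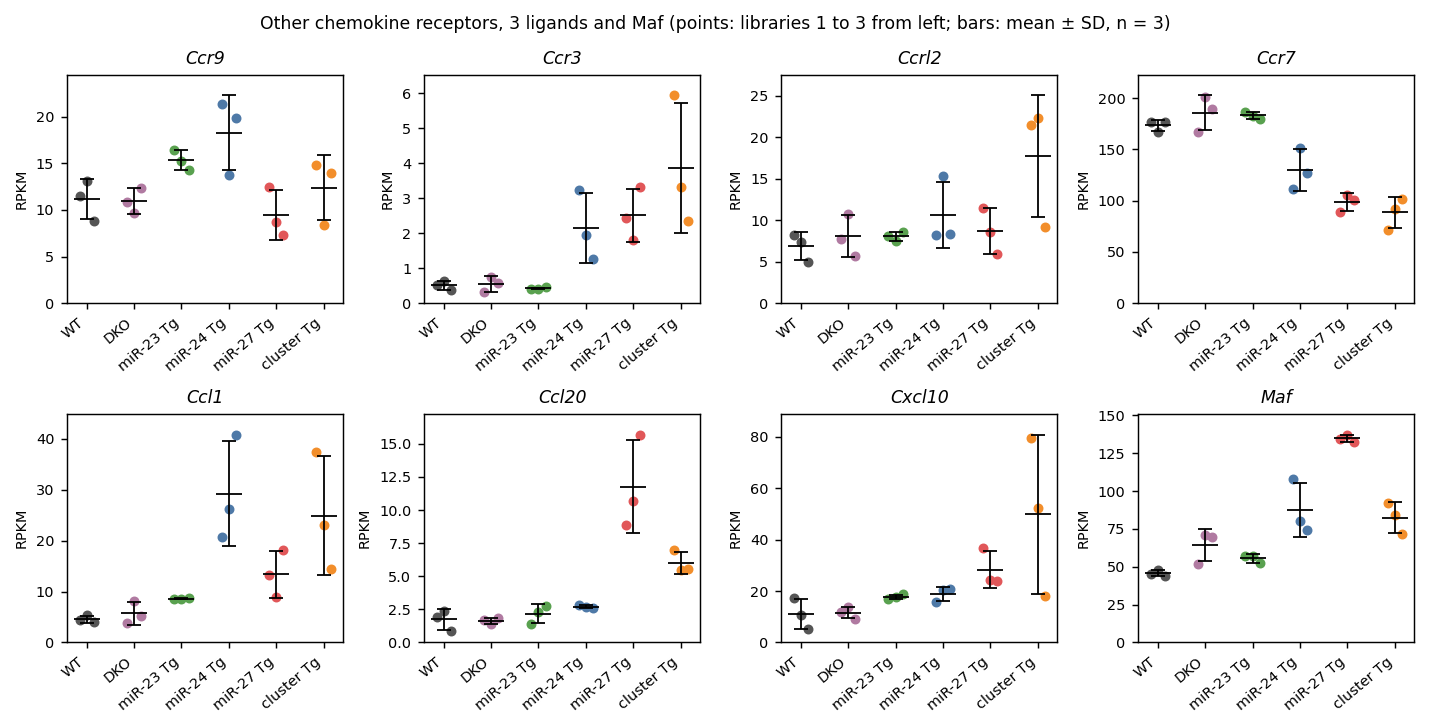
RPKM of 4 other chemokine receptors, 3 ligands and the transcription factor Maf in the 18 libraries by genotype (points are libraries 1 to 3 from left, bars are mean ± SD). Ccr3, Ccl1 and Maf are above WT in miR-24 Tg, miR-27 Tg and cluster Tg, Ccr7 is below it in these, and Ccl20 is highest in miR-27 Tg at 8.88 to 15.7.

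Of 31 tested genes of signalling below the receptors, 3 were called higher and 6 lower in miR-27 Tg cells (15.9% and 12.7% of all genes), 4 and 8 in cluster Tg (13.8% and 10.5%), 3 and 5 in miR-24 Tg (4.6% and 4.38%), and none in miR-23 Tg or DKO. The numbers called higher in miR-27 Tg and cluster Tg were under the share of all genes. Grk6, a kinase that desensitises chemokine receptors, fell to 88.6 ± 10.3 RPKM in cluster Tg, 104 ± 8.95 in miR-27 Tg and 100.1 ± 0.682 in miR-24 Tg from 137 ± 8.11 in WT (adjusted p = 0.000489, 0.00643 and 0.0101). Pik3r5, a regulatory subunit of the phosphoinositide 3-kinase that acts below G protein-coupled receptors, fell to 17.1 ± 2.64 in cluster Tg and 21.0 ± 1.73 in miR-27 Tg from 31.3 ± 0.475. Rgs10, Rgs14 and Rgs19, which shorten G protein signals, were each called lower in both miR-24 Tg and miR-27 Tg. In cluster Tg, Rgs19 stood at 54.1 ± 3.67 RPKM against 74.0 ± 2.89 in WT. Rgs3, of the same family, was higher in miR-24 Tg (31.7 ± 2.01 against 24.1 ± 1.49 RPKM, log2 0.39, adjusted p = 0.0158). Gng2, a G protein gamma subunit, rose 1.27-fold in cluster Tg and 1.30-fold in miR-24 Tg, and Plcb3, a phospholipase, 1.57-fold in miR-27 Tg.

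Of 16 other homing molecules, 5 were called higher and 2 lower in miR-27 Tg cells, 3 and 3 in cluster Tg, 3 and 2 in miR-24 Tg, and none in miR-23 Tg or DKO, to be read against the same shares of all genes. Itgb1, the integrin beta 1 chain, rose 3.56-fold in cluster Tg (224 ± 46.5 against 62.3 ± 10.4 RPKM), 2.58-fold in miR-27 Tg and 2.21-fold in miR-24 Tg. Gpr15, a receptor for homing to the colon, rose 2.45-fold in miR-27 Tg and 1.88-fold in miR-24 Tg, and Gpr183, an oxysterol receptor, rose 1.98-fold, 1.49-fold and 1.52-fold in miR-27 Tg, cluster Tg and miR-24 Tg. Gpr83, a receptor known from Treg cells, fell 6.88-fold in miR-24 Tg (12.6 ± 4.47 against 87.0 ± 22.5 RPKM) and 2.61-fold in cluster Tg.

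Among 20 tested transcription factors linked to these receptors, 10 were called higher and 4 lower in miR-27 Tg (15.9% and 12.7% of all genes). The counts were 6 and 4 in cluster Tg (13.8% and 10.5%) and 5 and 2 in miR-24 Tg (4.6% and 4.38%). None was called in miR-23 Tg or DKO. Maf, which drives effector programmes in several T cell types, read 134, 137 and 132 RPKM in miR-27 Tg cells, 92.1, 83.9 and 71.4 in cluster Tg cells, 108, 80.1 and 74.5 in miR-24 Tg cells and 45.0, 48.0 and 44.2 in WT. In miR-23 Tg it read 56.9, 57.4 and 52.2, and in DKO 52.0, 71.0 and 69.8. Maf lay above WT in all 5 other genotypes, whereas Ccr4 overlapped WT in miR-23 Tg and DKO. Maf was 2.93-fold higher in miR-27 Tg (adjusted p = 1.09e-05). Ahr rose 2.84-fold and Irf4 1.63-fold in miR-27 Tg, and Batf 1.999-fold and Id2 2.82-fold in cluster Tg. Tcf7 and Foxo1, which keep T cells in a resting state, fell 1.54-fold and 1.34-fold in miR-24 Tg, Foxp1 fell 1.52-fold in miR-27 Tg and Bach2 2.15-fold in cluster Tg. Tcf7 did not fall in miR-27 Tg, where it stood at 335 ± 18.5 RPKM against 279 ± 9.74 in WT. Tbx21, the type 1 factor linked to Cxcr3, was called higher against WT in the same 3 genotypes as Cxcr3. It was 3.07-fold higher in miR-27 Tg (adjusted p = 0.000646 in limma), 2.49-fold in cluster Tg (0.00297) and 1.96-fold in miR-24 Tg (0.0371). In miR-23 Tg cells Tbx21 read 6.11, 6.40 and 5.48 RPKM against 2.87, 2.96 and 2.90 in WT. There it did not overlap WT and did not pass (adjusted p = 0.14), the same pattern as Cxcr3 there. In DKO Tbx21 read 3.34, 3.66 and 3.74, also above WT without passing, whereas Cxcr3 overlapped WT in DKO. The mean of Tbx21 was highest in miR-27 Tg and that of Cxcr3 in cluster Tg. A link between Tbx21 and Cxcr3 was not tested.

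The genes of these lists named above, other than Tbx21, were also tested without miR-27 Tg library 3 and miR-24 Tg library 1. In miR-27 Tg, 19 of 23 calls against WT held, and those of Cxcl10 (log2 1.53, adjusted p = 0.0575), Rgs10, Rgs14 and Foxo1 ended. In miR-24 Tg, 9 of 17 held, and those of Ccr3, Ccr7 (-0.32, 0.21), Rgs3, Rgs10, Rgs14, Gpr15 (0.83, 0.121), Gpr183 (0.53, 0.0614) and Id2 ended. No direction changed. These counts include Ccr3 in both groups and Ccr1 in miR-27 Tg, which entered the test only through the groups where they are high. The calls of Ccr1 and Ccr3 therefore carry no weight here, whether they held or ended.

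Over the 18 libraries the receptors fell into patterns of covariation, given here as a description. On log2(RPKM + 0.5), Pearson's r was 0.86 between Ccr2 and Cxcr6, 0.83 between Ccr2 and Ccr4 and 0.82 between Ccr4 and Cxcr6. After the genotype means were removed these became 0.56, 0.19 and 0.46. Ccr8 and Cxcr4 gave 0.70, and 0.79 within genotypes. The libraries share genotype, depth and the other-cell content described above. The tested gene most like each receptor was Maf for Ccr4 (0.95, 0.73 within genotypes), Ly6c2 for Cxcr3 (0.95), Plekhg3 for both Ccr2 (0.95) and Cxcr6 (0.92), Ica1 for Ccr6 (0.93), D230025D16Rik for Cxcr4 (0.85), Slc38a7 for Ccr8 (0.81), Cybb for Cxcr5 (0.80) and Tyro3 for Ccr10 (0.73). The next in order were Ssx2ip and Nynrin for Ccr4, Mettl7a1 for Cxcr3, Psrc1 and Adam8 for Ccr2, Cd244 and App for Cxcr6, Slc26a2 and Tnfrsf8 for Ccr6, Cers2 and Pi4kb for Cxcr4, Ctla4 and Smox for Ccr8, Rdh12 and Lpxn for Cxcr5, and 9430038I01Rik and Sema7a for Ccr10.

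In GENCODE vM21 on GRCm38, 5 of the receptor genes lie on chromosome 9: Ccr2 (124101950-124113557), Cxcr6 (123806475-123811760), Ccr8 (120092114-120094906), Ccr4 (114490316-114504916) and Cxcr5 (44511787-44561877). The others are Ccr6 on chromosome 17 (8236043-8257141), Ccr10 on chromosome 11 (101172997-101175443), Cxcr3 on chromosome X (101731535-101734269) and Cxcr4 on chromosome 1 (128588199-128592293). Ccr2, Ccr6, Ccr8 and Cxcr6 are on the plus strand and the rest on the minus strand. On the opposite strand, Cxcr6 lies inside Fyco1 without a shared exonic base, Ccr10 inside Cntnap1 likewise, and Cxcr5 shares 110 exonic bases with Bcl9l. The sources used here do not say that reads were counted by strand. Fyco1 had 10.999 ± 2.29 RPKM in miR-27 Tg cells and 13.1 ± 0.0962 in WT cells (adjusted p = 0.34), and Bcl9l had 18.2 ± 2.70 in cluster Tg against 26.4 ± 9.80 in DKO. The part of reads from these neighbours in the values of Cxcr6 and Cxcr5 was not tested.

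Promoter windows from RefSeq (GRCm38.p6), 250 bases before to 50 after each start, were matched for 7 receptors (8 windows, 2 for Ccr6). They were searched on both strands for AGGTGTGA (T-box factors), TGANTCA (AP-1, the site of Batf and Fos-Jun pairs), GGAAAA (NFAT), AGATAA for GATA factors and CCACCC (KLF). The AP-1 letters were in Ccr4 and in 7.81% of 32851 windows, the NFAT letters in Ccr2 and in 23.4%, the GATA letters in Ccr2, Ccr6 and Ccr8 and in 11.2%, and the KLF letters in Ccr8 and in 31.5%. The T-box letters were in none of the 8 windows and in 1.28% of all. The Ccr4 stretch is shown because Batf was measured above, with the match in capitals and 30 bases on each side. The RefSeq start used for it lies inside the GENCODE span of Ccr4 given above, which on the minus strand begins at 114504916.
Ccr4 AP-1 match 143 bases before the start, chr9:114496651-114496717, minus strand: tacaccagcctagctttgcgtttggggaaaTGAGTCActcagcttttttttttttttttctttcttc
A match of letters is a description of the window and not a measured binding site.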

How the data were processed

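RNA was sequenced from sorted CD4+CD25hi mouse Treg cells in 18 libraries, 3 for each of 6 genotypes. The authors deposited 1 table of RPKM values with a column per library. Per the submitters' processing notes, STAR 2.2.0c, HOMER and the build mm10 (GRCm38) were used. The annotation and strand setting are not given in the sources used here. Read counts were not analysed here. Depth was estimated from steps between RPKM values of 5346 genes with 1 transcript and is approximate, since in each library only 42.4% or more of low values came within 0.1 of a whole read.

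Of 23953 entries, 4 with a repeated symbol were left out, 5198 were listed at 0 throughout, and 23 had symbols read as dates. A minimum of 1 RPKM in 3 or more libraries left 11520 genes, all 9 receptors included, which were tested on log2(RPKM + 0.5). All 18 libraries entered 1 limma 3.58.1 model (R 4.3.3) with a mean-variance trend, and p-values were two-sided and Benjamini-Hochberg adjusted within each of 12 comparisons, with 0.05 as threshold. Python 3.11.15, pandas 2.3.3 and matplotlib 3.10.9 were used. No 2 libraries held identical values.

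The receptors and all gene lists were chosen with earlier results of these data known. Named genes were the 9 receptors, up to 4 genes per list and comparison by smallest unadjusted p, and the 3 tested genes of highest Pearson correlation with each receptor. Single further values were added after they were seen: those per library and those of Cd14, Csf1r, Lyz2, Klra8, Klrd1, Ncr1, Mki67, Ccl7, Ccl17, Ccl22, Ccl28, Fyco1 and Bcl9l. Same-numbered libraries of different genotypes did not deviate together (median correlation 0.004 over 45 pairs, -0.167 to 0.188, 6 over 0.1), so replicate numbers were not used as pairs. The method was tested on simulated data. Some single genes of the lists are not reported here. Alternatives were no filter, a pseudocount of 0.1 or 1, a model of only the 2 compared groups, median-of-ratios scaling, a replicate block, leaving out each library, leaving out miR-27 Tg library 3 together with miR-24 Tg library 1, and 6-base seed matches.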

Additional observations from a re-analysis of the deposited data

How the results depend on the processing

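Of 28 called differences of a receptor, all 351 values under the alternatives kept their direction, and 51 of them missed the threshold. In a further 67 alternative values of differences that had not passed, the sign changed. Against WT, the calls of Ccr2, Ccr4, Cxcr3 and Cxcr6 in miR-27 Tg, of Ccr2, Ccr4 and Cxcr3 in cluster Tg and of Cxcr3 in miR-24 Tg held under every alternative run. With only the 2 compared groups in the model, the receptors called were 1 for miR-24 Tg against WT, 2 for miR-27 Tg against miR-23 Tg, 0 for cluster Tg against miR-27 Tg and 3 for cluster Tg against DKO. Without a filter, 1 was called for miR-24 Tg against miR-23 Tg. Without miR-27 Tg library 3 and miR-24 Tg library 1, 1 was called for miR-24 Tg against WT, 0 for miR-24 Tg against miR-23 Tg and 0 for cluster Tg against miR-27 Tg. The cause was not tested. Leaving out 1 library at a time gave 2 to 4 receptors for miR-24 Tg and 3 to 4 for cluster Tg against WT, 0 to 2 for miR-24 Tg, 2 to 4 for miR-27 Tg and 2 to 4 for cluster Tg against miR-23 Tg, 0 to 1 for cluster Tg against miR-24 Tg, 0 to 1 for cluster Tg against miR-27 Tg and 3 to 6 for cluster Tg against DKO. With the replicate number as a block (replicate block), 5 receptors were called for cluster Tg against WT and 3 for miR-24 Tg against miR-23 Tg, Ccr6 being the addition in both, and no other count changed. Median-of-ratios scaling moved the median of all genes by at most 0.0171 (log2). Pseudocounts of 0.1 and 1 changed no count of receptors. The level of Ccr10, near 1 RPKM, limits what can be seen of it.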
